A study of Drosophila melanogaster with 6 samples.

Results

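The zinc transporters of *Drosophila melanogaster* were examined in whole testes of Zeus KO and control flies. They were chosen by name as 9 listed genes, the 6 Zip importers *Zip42C.1*, *Zip42C.2*, *Zip48C*, *Zip71B*, *Zip89B* and *Zip99C* and the 3 ZnT exporters *ZnT33D*, *ZnT35C* and *ZnT63C*. Of these, 8 had a row among the 11491 genes of the expression table, and all 8 passed the filter on low values, a mean of at least 1 normalized read. *Zip42C.1* was not analysed here.

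Poly(A) RNA was sequenced in 3 Zeus KO and 3 control libraries of whole testes from adult males, with 12533272 to 18846182 sequenced reads per library. The Zeus KO flies carried small frameshift deletions with early stop codons, made with CRISPR-Cas9 in the coding sequence of *Zeus* (*Rcd-1r*), a retroposed copy of the CCR4–NOT subunit gene *Caf40*, and the controls came from a control injection line that the labels call WT. All groups shared the strain BDSC #25710, which carries a germline phiC31 integrase (nos-phiC31\int.NLS), an attP2 landing site and the alleles y[1], sc[1], v[1] and sev[21]. The flies were kept at 25 °C, and each replicate was held in PBS before extraction. The age of the flies is not given in the sources used here, nor whether the Zeus KO libraries came from 1 line or from several.

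Zinc is a structural and catalytic part of many proteins, and its level in the cytosol is set by proteins of opposing direction. Zip proteins (the SLC39 family) bring zinc into the cytosol from outside the cell or from an organelle, and ZnT proteins (the SLC30 family) carry it out of the cytosol, across the plasma membrane or into vesicles. In the fly, several of these genes are best known from other organs. *Zip42C.1*, *Zip42C.2* and *Zip89B* take up dietary zinc in the midgut, *ZnT63C* passes it on from the enterocyte to the body, and *Zip71B* and *ZnT35C* act in zinc excretion by the Malpighian tubules, the renal organ of the fly. *Zip99C* is the fly counterpart of mammalian ZIP13 and is known for moving iron into the secretory pathway.

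None of the 8 zinc transporters was called between Zeus KO and control testes, where a call needed both a fold change of 1.5 or more and an adjusted p below 0.05 (limma's moderated test, Benjamini-Hochberg adjustment over 11164 genes). Over all genes tested, 4.06% were called, 2.16% higher and 1.9% lower in Zeus KO. Without the limit on the fold change, 0 of the 8 and 5.04% of all genes tested passed. At an unadjusted p under 0.05 there were 5 of the 8, with 4 higher in Zeus KO (*Zip48C*, *Zip71B*, *Zip89B* and *ZnT35C*) and 1 lower (*Zip42C.2*), against 18.9% of all genes tested. Limma-voom on the solved reads also called 0 of the 8. The median log2 difference of the 8 genes was 0.21, and that of all genes tested was 0.00. The members and lists are small and were not drawn at random, so that these counts describe them only.

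Every value per library was solved from the deposited group means, which are sums of whole reads with a fixed weight for each library. The libraries are therefore named by their size factor, the number by which the reads of a library were divided, and values are given in the order of the largest, the middle and the smallest size factor of the group. A normalized read is a read divided by that factor, without correction for gene length. The solved reads summed to 7097928 to 8978843 in 5 of the libraries and to 10581288 in the Zeus KO library of the largest size factor. Log2 differences are Zeus KO minus control on the scale of log2(normalized reads + 1), which understates the difference of low genes, and are given with the standard error (SE) or the 95% interval.

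The deletions in *Zeus* are small, and its transcript was counted in both groups. It had 269, 269 and 328 normalized reads in the Zeus KO libraries, against 319, 338 and 380 in the control libraries. The groups overlapped, and the log2 difference of -0.26 (SE 0.13) did not pass limma's test (adjusted p = 0.314). The level of the transcript does not check the genotype labels, since reads of an indel allele are still counted.

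Per kb of exon, the 8 zinc transporters stood in the same order in both groups, and their levels were far apart. *Zip99C* was highest, with 1860 ± 24.1 normalized reads per kb in Zeus KO and 1890 ± 143 in control (SD, n = 3 each). Per kb it stood above 92.8% of genes tested in Zeus KO and 92.4% in control, which leaves out genes too abundant to be solved. It was followed by *ZnT35C*, *ZnT33D*, *ZnT63C*, *Zip71B*, *Zip48C*, *Zip89B* and *Zip42C.2*, the last with 2.51 ± 0.733 normalized reads per kb in Zeus KO and 9.92 ± 3.01 in control. The libraries of neighbours in this order did not overlap within a group, with the exception of *Zip71B* and *Zip48C* in Zeus KO, which ranged from 222 to 231 and from 184 to 230 normalized reads per kb. The spread between libraries does not cover error in the exon length, which counts all annotated exons of a gene. Before division by length, *ZnT63C* averaged 1453 normalized reads and *ZnT33D* 1181 in Zeus KO, and 1279 and 1286 in control.

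**Figure D1:**
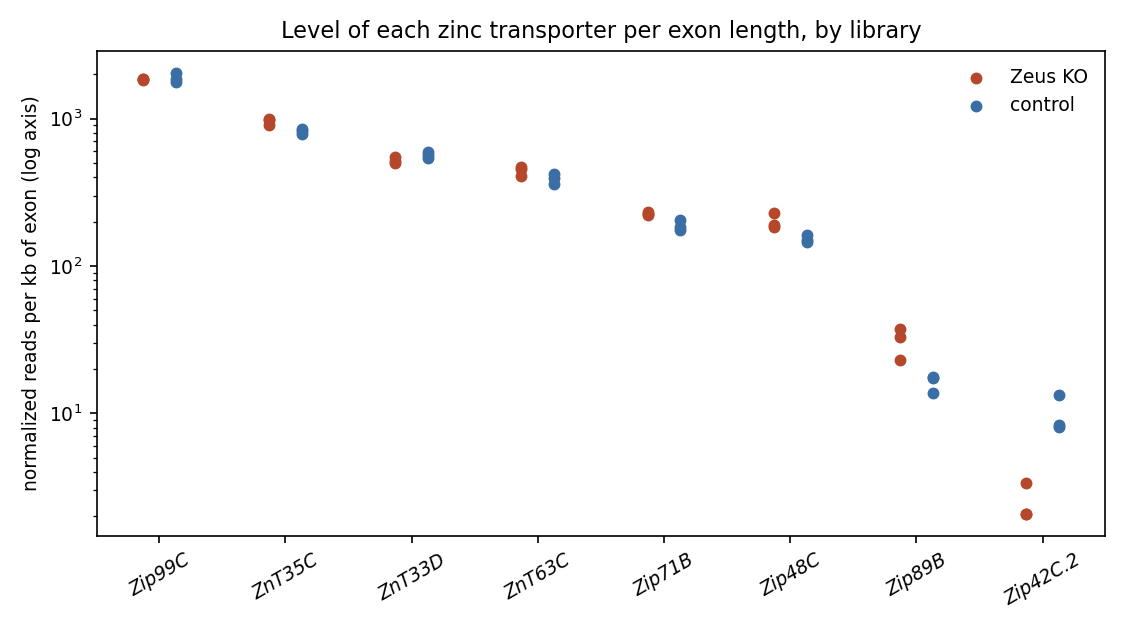
Normalized reads per kb of exon (log axis) of the 8 zinc transporters in each of the 3 Zeus KO and 3 control libraries (points), from the highest to the lowest gene. *Zip99C* lies near 1860 in Zeus KO and 1890 in control, and *Zip42C.2* at 2.51 in Zeus KO and 9.92 in control.

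*Zip99C* made up 80.1% of the summed Zip level per kb in Zeus KO and 83.8% in control, where the sum runs over the 5 listed Zip genes with a row. Among the 3 listed ZnT genes, *ZnT35C* held 49.8% of the sum in Zeus KO and 45.9% in control. The summed Zip level was between 2315 and 2327 normalized reads per kb in Zeus KO and between 2142 and 2412 in control, so that the groups overlapped. The summed ZnT level was between 1861 and 2018 in Zeus KO and between 1754 and 1807 in control, without overlap. The ratio of the Zip sum to the ZnT sum was 1.15 to 1.25 in Zeus KO and 1.22 to 1.33 in control. The ratios overlapped.

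*Zip89B*, which takes up dietary zinc at the apical membrane of midgut enterocytes, was the member with the lowest unadjusted p. It lies on chromosome 3R (16305758 to 16308700, plus strand, dm6) and has 1 transcript with 2011 bases of exon. It had 65.7, 75.0 and 46.5 normalized reads in the Zeus KO libraries, against 27.7, 34.7 and 35.5 in the control libraries. Every Zeus KO library was above every control library, and the Zeus KO library of the smallest size factor was nearest to the controls. These values rest on 74, 70 and 35 reads in Zeus KO and on 26, 27 and 27 reads in control. The mean was 62.4 ± 14.5 in Zeus KO and 32.6 ± 4.29 in control (SD, n = 3 each), a log2 difference of 0.90 with a 95% interval of 0.36 to 1.43. It did not pass the adjustment over all genes (limma, adjusted p = 0.0616). Without the Zeus KO library of the smallest size factor the log2 difference was 1.09 and the gene was called (adjusted p = 0.0476), and over all 17 alternatives the adjusted p ranged from 0.0476 to 0.258.

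*Zip42C.2* is a further importer of dietary zinc in the midgut and had few reads in these testes. It lies on chromosome 2R (6718196 to 6719533, minus strand), 488 bases from *Zip42C.1* (6716342 to 6717707, minus strand). It had 2.66, 4.28 and 2.66 normalized reads in the Zeus KO libraries, against 10.7, 10.3 and 17.1 in the control libraries. All Zeus KO libraries were below all control libraries. In whole reads these were 3, 4 and 2 in Zeus KO and 10, 8 and 13 in control, in all 9 and 31. Scaled by the size factors, the pooled ratio of Zeus KO to control was 0.256, with an exact 95% interval of 0.107 to 0.550 that covers counting error only. The log2 difference was -1.69 (SE 0.48), with a 95% interval of -2.75 to -0.63 (limma, adjusted p = 0.0742). This gene was called where no filter on low values was set (adjusted p = 0.0498) and in limma's test without a trend (adjusted p = 0.0117), and its adjusted p over 16 alternatives went up to 0.307.

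The exporter of the midgut group, *ZnT63C* (chromosome 3L, 3303708 to 3314009, plus strand), was abundant in both groups. Its levels were 1335, 1487 and 1539 normalized reads in the Zeus KO libraries, against 1279, 1180 and 1378 in the control libraries. The groups overlapped at the Zeus KO library of the largest size factor. The log2 difference was 0.18, with a 95% interval of -0.04 to 0.41 (limma, adjusted p = 0.359).

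**Figure D2:**
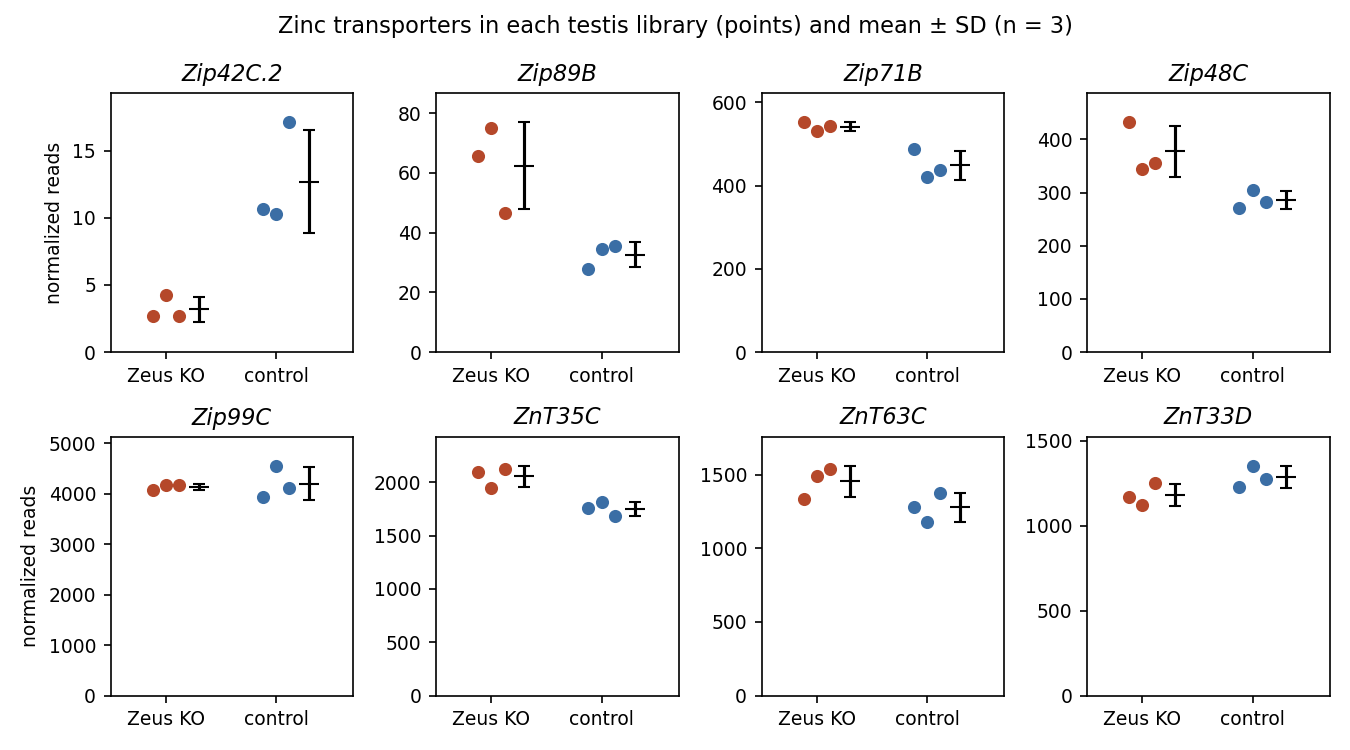
Normalized reads of each zinc transporter in the 3 Zeus KO and the 3 control libraries (points, linear axes from 0), with the mean and SD of the group (n = 3) to their right. The groups do not overlap in *Zip42C.2*, *Zip89B*, *Zip71B*, *Zip48C* and *ZnT35C*, and *Zip42C.2* alone of these is lower in Zeus KO.

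Both transporters known from zinc excretion had small differences of the same sign, which was also the sign of *Zip89B*, *Zip48C* and *ZnT63C*. *Zip71B*, which brings zinc into the cells of the Malpighian tubules, lies on chromosome 3L (14992289 to 14997983, plus strand), where it shares 3 exon bases with *mRpL39* on the opposite strand. It had 551, 530 and 542 normalized reads in the Zeus KO libraries, against 487, 420 and 438 in the control libraries. The groups did not overlap, and the log2 difference was 0.27, with a 95% interval of 0.04 to 0.51 (limma, adjusted p = 0.201). *ZnT35C*, which moves zinc into vesicles of tubule cells for its secretion, lies on chromosome 2L (15228728 to 15247714, minus strand). It had 2099, 1945 and 2125 normalized reads in the Zeus KO libraries, against 1754, 1814 and 1679 in the control libraries. Again every Zeus KO library was above every control library. The log2 difference was 0.23, with a 95% interval of 0.04 to 0.43 (limma, adjusted p = 0.192). For both genes the interval lay within a 1.5-fold difference in either direction.

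*Zip48C* (chromosome 2R, 11899517 to 11901394, plus strand) has a single exon and lies within the span of *MCPH1* on the opposite strand, without shared exon bases. It had 432, 345 and 356 normalized reads in the Zeus KO libraries, against 272, 306 and 283 in the control libraries. The groups did not overlap, and the Zeus KO library of the largest size factor was highest. The mean was 378 ± 47.6 in Zeus KO and 287 ± 17.2 in control (SD, n = 3 each), 1.32 times as high in Zeus KO. The log2 difference of 0.39 (95% interval 0.11 to 0.67) did not pass the adjustment (limma, adjusted p = 0.123). *MCPH1* itself had authors' means of 12418 in Zeus KO and 12413 in control, and whether strand was used in counting is not given in the sources used here, so reads from its introns could not be told apart from those of *Zip48C*.

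The most abundant member, *Zip99C* (chromosome 3R, 29863701 to 29868895, minus strand, 9 transcripts), was close to equal in both groups. It had 4072, 4164 and 4165 normalized reads in the Zeus KO libraries, against 3937, 4554 and 4114 in the control libraries. The Zeus KO libraries lay between the control libraries. The log2 difference was -0.02, with a 95% interval of -0.22 to 0.18 (limma, adjusted p = 0.928).

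*ZnT33D* (chromosome 2L, 12164241 to 12166704, plus strand) had 1168, 1125 and 1252 normalized reads in the Zeus KO libraries, against 1227, 1353 and 1277 in the control libraries. The groups overlapped through the Zeus KO library of the smallest size factor. The log2 difference was -0.12, with a 95% interval of -0.33 to 0.09 (limma, adjusted p = 0.539). The gene overlaps *CG31760* on the same strand, without shared exon bases.

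The Zeus KO and control libraries did not overlap in 5 of the 8 genes, 4 of them higher and 1 lower in Zeus KO. Over all genes tested, 23.4% did not overlap, 11.8% higher and 11.6% lower. The 95% interval lay within a 1.5-fold difference in either direction for 5 of the 8 zinc transporters (*Zip71B*, *Zip99C* and the 3 ZnT genes) and for 6939 of the 11164 genes tested. The intervals of *Zip89B* and *Zip48C* ran across the 1.5-fold limit, so that a larger difference could not be told apart from a smaller one, and that of *Zip42C.2* lay wholly beyond it on the lower side, on the few reads given above.

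**Figure D3:**
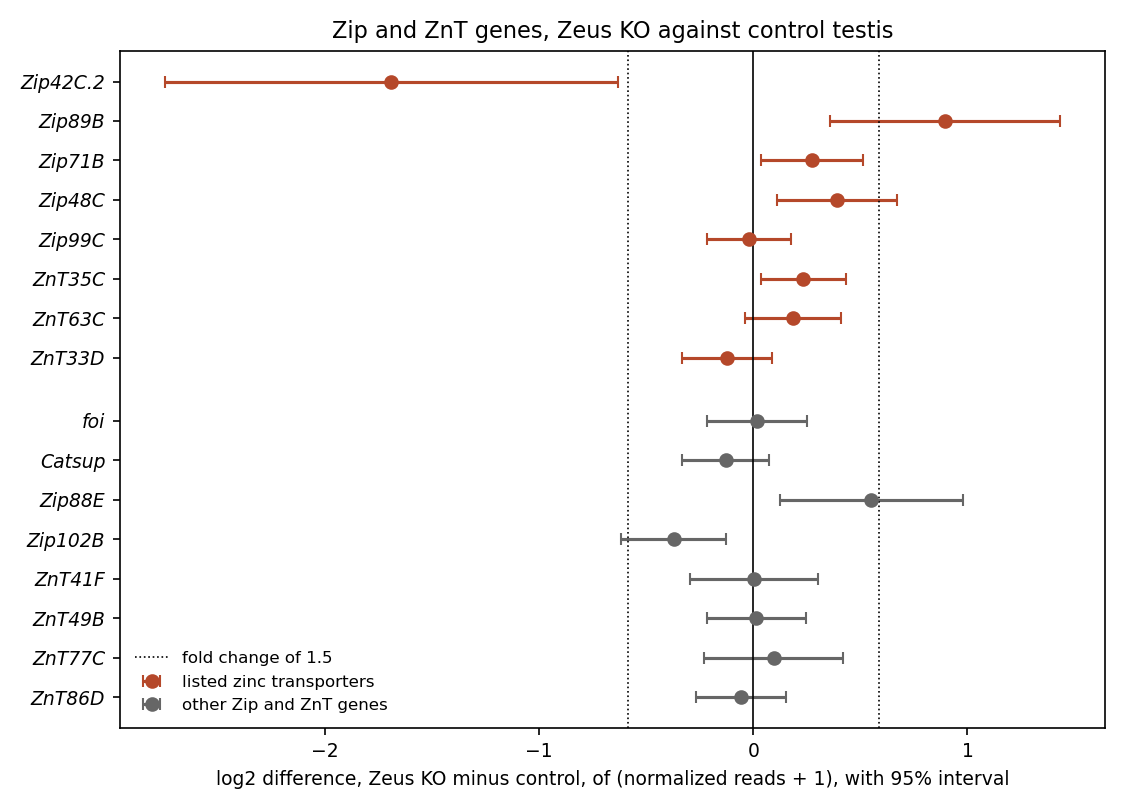
Log2 difference, Zeus KO minus control, of (normalized reads + 1) with its 95% interval for the 8 zinc transporters and the other 8 Zip and ZnT genes; dotted lines mark a fold change of 1.5. The values run from -1.69 in *Zip42C.2* to 0.90 in *Zip89B*, and 5 of the 8 zinc transporters have intervals between the dotted lines.

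The other Zip and ZnT genes of the table number 8, and none of them was called by limma. At an unadjusted p under 0.05 (limma) there were 2, 1 higher and 1 lower, against 18.9% of all genes tested. The median log2 difference of these 8 was 0.01. *Zip102B*, the counterpart of mammalian ZIP9, had 523, 429 and 484 normalized reads in the Zeus KO libraries, against 615, 648 and 592 in the control libraries. It was lower in every Zeus KO library, by -0.37 on the log2 scale (limma, adjusted p = 0.0906). *Zip88E* had 104, 75.0 and 97.0 normalized reads in the Zeus KO libraries, against 57.6, 69.3 and 59.2 in the control libraries, a log2 difference of 0.55 without overlap (limma, adjusted p = 0.151). It shares 101 exon bases with *Cp190* on the opposite strand, which had authors' means of 754 in Zeus KO and 608 in control. The part of *Cp190* reads in the level of *Zip88E* was not tested. *Catsup*, the counterpart of ZIP7, which releases zinc from the endoplasmic reticulum and Golgi, averaged 1270 ± 61.6 normalized reads in Zeus KO and 1390 ± 61.1 in control (SD, n = 3 each). Its log2 difference was -0.13, lower in each Zeus KO library (unadjusted p = 0.192, limma). For *foi*, known from gonad formation, the log2 difference was 0.02. *ZnT41F*, *ZnT49B*, *ZnT77C*, which exports zinc from enterocytes, and *ZnT86D*, the counterpart of ZnT7 of the Golgi, had log2 differences of 0.00, 0.01, 0.10 and -0.06. In these last 5 genes the groups overlapped.

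Cytosolic zinc is also bound by metallothioneins, small cysteine-rich proteins whose genes are switched on by the zinc-sensing factor MTF-1. Of the 7 genes of this list, 6 were tested and 2 were called, both higher in Zeus KO, where 2.16% of all genes tested were called higher. *MtnD* had 101, 71.8 and 70.4 normalized reads in the Zeus KO libraries, against 33.0, 32.1 and 34.2 in the control libraries, and *MtnE* had 124, 80.3 and 110 in the Zeus KO libraries, against 24.5, 52.6 and 42.1 in the control libraries. Both rose in Zeus KO without overlap of the libraries, *MtnD* by a log2 difference of 1.25 (SE 0.22, limma, adjusted p = 0.00516) and *MtnE* by 1.42 (SE 0.28, adjusted p = 0.0121). The call of *MtnE* was lost without the Zeus KO library of the smallest size factor (adjusted p = 0.0579) and without the smallest-factor control library (adjusted p = 0.0515). *MtnB* was lower in each Zeus KO library and was not called (log2 difference -0.79, adjusted p = 0.147). *MtnC*, with 531 ± 121 normalized reads in Zeus KO and 541 ± 66.8 in control (SD, n = 3 each), and *MTF-1*, with 207 ± 20.9 in Zeus KO and 218 ± 15.9 in control, had log2 differences of -0.04 and -0.08. *MtnF*, listed under the symbol *CG43222*, averaged 2149 ± 184 normalized reads in Zeus KO and 2473 ± 386 in control, with a log2 difference of -0.19 (limma, adjusted p = 0.417). *MtnA*, by far the most abundant of the list, had authors' means of 21158 in Zeus KO and 23074 in control, which were too high to be solved for the libraries, and was not tested. The list's median log2 difference was -0.06.

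Of 19 listed genes of copper and iron transport and storage, 15 had a row and 13 were tested. Limma called none of them, and 0 had an unadjusted p under 0.05, against 18.9% of all genes tested. The 3 most abundant were the transferrin *Tsf1*, with authors' means of 8925 in Zeus KO and 10611 in control, the ferritin subunit *Fer1HCH*, with authors' means of 7633 in Zeus KO and 8813 in control, and the ferritin subunit *Fer2LCH*, with 6634 ± 247 normalized reads in Zeus KO and 7450 ± 589 in control (SD, n = 3 each; log2 difference -0.16, adjusted p = 0.358).

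Markers of the organs in which several zinc transporters are best known were present in both groups, and they differed between them. Of 25 midgut markers tested, 4 were called higher and 12 lower in Zeus KO, with a median log2 difference of -0.71, where 2.16% of all genes tested were called higher and 1.9% lower. Their summed level was between 23308 and 27249 normalized reads in the Zeus KO libraries and between 42683 and 43861 in the control libraries. Directions differed within the list: the trypsin gene *betaTry* averaged 2042 ± 297 in Zeus KO and 6620 ± 528 in control, and the protease gene *Jon25Biii* averaged 1755 ± 365 in Zeus KO and 736 ± 92.1 in control (SD, n = 3 each). Of the midgut transporters, *Zip42C.2* was lower in every Zeus KO library, as were 17 of the 25 markers, while *Zip89B* was higher in every Zeus KO library, as were 5 of them. Over all genes tested these shares were 11.6% lower and 11.8% higher. In the midgut exporters *ZnT63C* and *ZnT77C* the groups overlapped, with log2 differences of 0.18 and 0.10. The values of *Zip42C.2* rest on 9 reads in Zeus KO and 31 in control.

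Of 11 Malpighian tubule markers tested, 4 were called higher and 1 lower in Zeus KO, beside the same 2.16% and 1.9% of all genes tested, with a median log2 difference of 0.47 and a summed level of 7430 to 7928 normalized reads in the Zeus KO libraries, against 6798 to 7096 in the control libraries. Urate oxidase *Uro*, whose expression is known from the tubules, averaged 1195 ± 94.2 normalized reads in Zeus KO and 690 ± 22.7 in control (SD, n = 3 each), a log2 difference of 0.79 (limma, adjusted p = 0.000562). The potassium channel gene *Irk3*, the phosphate transporter gene *NaPi-T* and the capa receptor gene *CapaR* rose by 1.12, 0.62 and 1.53 on the log2 scale, and *Fst* fell by 1.56. The call of *NaPi-T* was lost without the control library of the middle size factor, where its log2 difference was 0.56 (adjusted p = 0.0158), and that of *CapaR* without the Zeus KO library of the middle size factor (log2 difference 1.45, adjusted p = 0.0662). *Zip71B* and *ZnT35C* were higher in Zeus KO by 0.27 and 0.23, below each of the 4 called higher. The part of midgut or tubule RNA in the levels of the zinc transporters was not tested, and in bulk testes fewer cells of a type and less RNA per cell cannot be told apart.

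Markers of the testis itself were present throughout, and no listed marker with a row was at 0 in both groups. Listed markers without a row, all of them from the lists of other organs, could not be judged. Of 15 spermatocyte and spermatid markers, 10 early germline markers and 8 cyst cell and hub markers tested, none was called by limma. In this order, 2, 2 and 0 had an unadjusted p under 0.05 (limma), against 18.9% of all genes tested. The median log2 differences of the 3 lists were 0.02, -0.16 and 0.01. The summed level of the cyst cell and hub markers was 4594 to 5340 normalized reads in the Zeus KO libraries and 4433 to 5214 in the control libraries, and that of the early germline markers was 5320 to 6054 in Zeus KO and 5351 to 5901 in control. All 27 spermatocyte and spermatid markers summed to authors' means of 275425 in Zeus KO and 305873 in control. The 15 with solved reads summed to 30507 to 36232 normalized reads in Zeus KO and 31371 to 38098 in control, with overlap. The rest of that list was too abundant to be solved and was not tested. Among the remaining lists, 2 of 15 accessory gland and ejaculatory duct markers were called higher and 2 lower, 3 of 19 muscle markers higher and 1 lower, and 1 of 10 fat body markers higher and 2 lower, beside 2.16% and 1.9% of all genes tested. All 22 accessory gland and ejaculatory duct markers with a row summed to authors' means of 122929 in Zeus KO and 176286 in control. Those with solved reads summed to 36356 to 47040 normalized reads in the Zeus KO libraries and 43417 to 52867 in control, with overlap. The 11 fat body markers with a row summed to authors' means of 18794 in Zeus KO and 23480 in control. Those with solved reads summed to 3735 to 4562 in the Zeus KO libraries and 5261 to 6905 in control, without overlap. The muscle markers with solved reads summed to 32518 to 35202 normalized reads in the Zeus KO libraries and to 26579 to 30481 in the control libraries. Of the 19 muscle markers tested, 12 were higher and 1 lower without overlap of the libraries, against 11.8% and 11.6% of all genes tested.

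**Figure D4:**
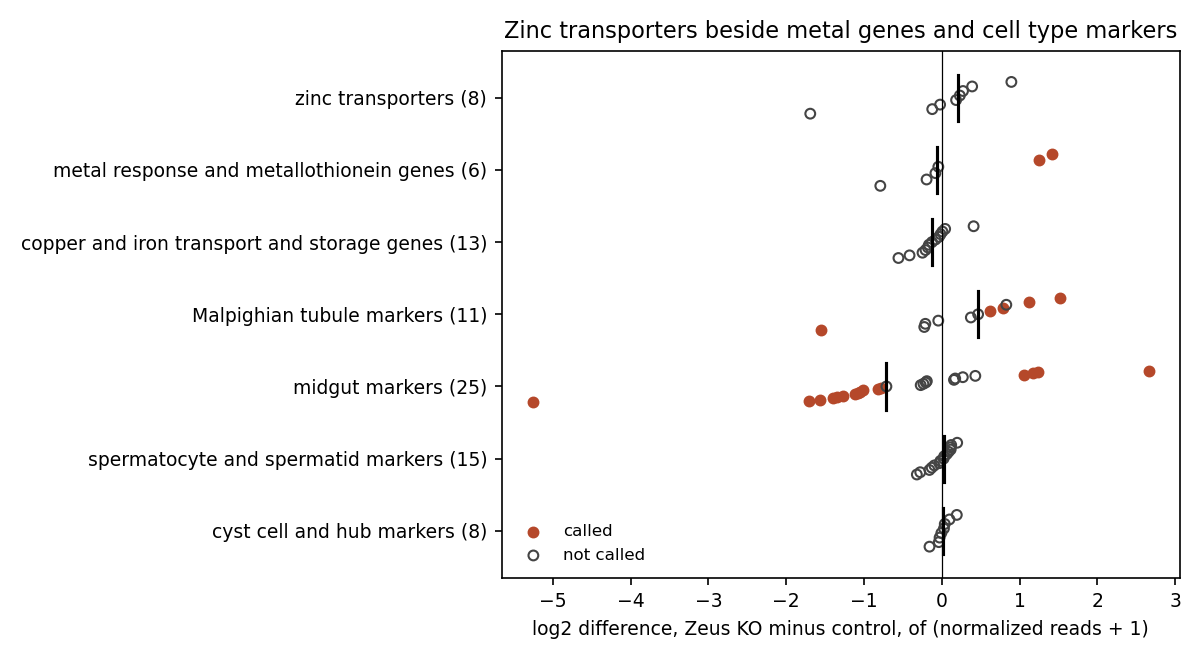
Log2 difference, Zeus KO minus control, of each tested gene (points, filled where called) in the zinc transporters, the metal lists and the marker lists, with the median of the list as a bar and the number tested in brackets. The zinc transporters have no filled point and a median of 0.21, the midgut markers a median of -0.71 and the tubule markers a median of 0.47.

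Across the 6 libraries, the genes whose levels followed *Zip89B* most closely were *vers*, *Sec10* and *CG7246*, with Pearson's r of 0.980, 0.980 and 0.976 on log2(normalized reads + 1), of 10958 genes with a mean of at least 10. These correlations are given as a description, since the libraries share depth and group and 154 genes had an r over 0.9. None of the 3 was called, and their log2 differences were 0.36, 0.16 and 0.54.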

How the data were processed

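Reads were aligned to dm6 by the authors using STAR and assigned to genes using featureCounts, and the authors tested the groups with DESeq2, edgeR and limma. Versions, annotation and strand setting are not given in the sources used here. The deposited signal of a gene is the mean over a group of its reads divided by size factors. The deposited table also holds the authors' fold changes, standard errors, p-values, q-values and calls, which were not used. The FastQC summary deposited by the authors gives the number of sequenced reads of each library, a whole number written with a decimal and treated as a score. Its library names match no label, so a planned permutation test per library was not run.

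Whole reads per library were solved from group means up to 8000, at a relative tolerance of 1e-14. This solved 11178 of 11491 genes (97.3%), and the other 313, all with a mean above 8000, hold 36.2% of the normalized reads. Groups were compared with limma 3.58.1 (R 4.3.3), using a mean-variance trend and a pseudocount of 1, in the 11164 genes that reached a mean of 1. P-values measure the spread between these libraries, described as biological triplicates. Alternatives changed the pseudocount, filter, normalization, variance model, test, call, solved genes and libraries. The scripts were tested on simulated data.

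Exon lengths and positions came from the Ensembl annotation (release 115) of the same assembly. An overlap of exons with another gene is not reported here for every member. All members were named, with every called gene of the metal lists (the 3 most abundant where none was called), *Zeus*, and the 3 genes most correlated with the member of lowest unadjusted p. Other genes were named after their values were seen. The members and lists were chosen with earlier results of these data known.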

Additional observations from a re-analysis of the deposited data

How the results depend on the processing

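The number of zinc transporters called was 0 in the main test and in 14 of 17 alternatives. It was 1 without a filter on low values and 1 without a trend (*Zip42C.2* in each), and between 0 and 1 when each library was left out in turn (*Zip89B* without the Zeus KO library of the smallest size factor). *Zip42C.2*, *Zip89B* and *Zip48C*, kept their direction in every alternative run, with log2 differences of -1.87 to -1.09, 0.75 to 1.09 and 0.29 to 0.45, as did *Zip71B*, *ZnT35C*, *ZnT63C* and *ZnT33D*. *Zip42C.2* could not be tested at a mean of at least 10. The log2 difference of *Zip99C*, -0.02 in the main test, was 0.061 under quantile normalization and 0.0090 with reads scaled to the solved total of each library. It ranged from -0.066 to 0.039 when each library was left out, and was above 0 without the control library of the middle size factor. The cause was not tested.

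The number of genes called over the whole table was 453, between 427 and 563 under the other alternatives, and between 296 and 555 when each library was left out. The lowest count came without the smallest-factor control library. Genes called lower in Zeus KO were 212, between 128 and 279 when each library was left out. No paired analysis was possible because the solved libraries carry no replicate number. The main limits are 3 libraries per group, the low depth of *Zip42C.2* (9 reads in Zeus KO and 31 in control) and the genes with means too high to be solved.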
